A study of Homo sapiens with 6 samples.

Results

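The brakes on mTOR complex 1 (mTORC1) and the related alpha-arrestins were examined in PDBAG1-treated MDA-MB-231 cells as 10 genes of the 17631 with a value in each library: DDIT4, SESN1, SESN2, SESN3, TSC1, TSC2, DEPTOR, TXNIP, ARRDC3 and ARRDC4. Members were found by gene symbol, and all 10 were present. They had been picked with the difference between PDBAG1 and vehicle in these same libraries already known, so their differences are described with their spread, and no p-value is given for them. MDA-MB-231 is a long-established line of triple-negative human breast cancer, that is, without oestrogen and progesterone receptors or amplified HER2. PDBAG1 is a peptide derived from GPD1, a glycerol-3-phosphate dehydrogenase, joined to a cell-penetrating peptide. The vehicle group and the group treated with 30 µM PDBAG1 for 24 h held 3 libraries each, and both were grown in the same serum-supplemented medium. The study thus compared 1 dose and 1 time in 1 line. The labels name breast cancer tissue as the source beside the cell line, and do not say whether the libraries came from separate cultures, so p-values measure only the spread between these libraries, which may be technical. Values are TPM, a transcript level scaled for transcript length and to the same total in every library. They keep no sequencing depth, so no counting error can be given, and in bulk RNA fewer cells with a transcript and less of it per cell cannot be told apart.

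The libraries resembled each other within groups: the SD of log2 differences over 12582 genes was 0.142 to 0.175 between libraries of one group and 0.278 to 0.296 between groups. VIM, a mesenchymal filament gene typical of this line, led its 5 markers, whose summed level was 5445 to 5626 TPM with vehicle and 7136 to 7244 TPM with PDBAG1. The 5 did not move together: VIM and CD44 rose in limma, by 0.46 and 0.59 on the log2 scale, KRT18 and AXL fell by 0.21 and 0.26, and EGFR did not pass. Of 6 receptor and epithelial markers, PGR was at 0.06 TPM or less and CDH1 at 0.84 TPM or less. The 4 that passed the filter on low values were expressed. Mean levels with vehicle and with PDBAG1 were 24.7 and 24.5 TPM for ERBB2 and 5.14 and 5.27 TPM for EPCAM. They were 3.59 and 3.23 TPM for GATA3 and 2.26 and 2.61 TPM for ESR1. None of these 4 passed the limma test, at an adjusted or at an unadjusted p under 0.05. Of 9 markers of immune, endothelial, fat and stromal cells, 7 were in the table. All 3 of these that could be tested were higher with PDBAG1, and the summed level of the 7 was 258 to 271 TPM with vehicle and 319 to 341 TPM with PDBAG1, nearly all of it CD68. Without CD68 the sum was 7.43 to 7.58 TPM and 12.1 to 13.8 TPM, and PECAM1, an endothelial marker, rose from 3.94 ± 0.152 to 8.64 ± 0.680 TPM. COL1A2 was at 0 in at least 1 library, and PTPRC, the pan-leukocyte marker, stayed at 1.41 TPM or less. The part of these markers in the results was not tested.

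mTORC1 is a kinase complex that drives protein and lipid synthesis and holds back autophagy when growth factors, amino acids and energy are plentiful. RHEB switches it on at the lysosome. The complex of TSC1 and TSC2 switches RHEB off, and DDIT4, also called REDD1, is a stress-induced protein that acts through this TSC complex. Sestrins act on the amino acid branch, where they bind the GATOR2 complex, and DEPTOR binds mTOR itself. TXNIP, ARRDC3 and ARRDC4 are alpha-arrestins, adaptors that bring membrane proteins to ubiquitin ligases or to endocytosis. TXNIP also binds thioredoxin and lowers glucose uptake through glucose transporters.

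The levels of the 10 genes covered a wide range. In vehicle, DDIT4 was highest at 189 ± 13.8 TPM (mean ± SD, n = 3 here and below). The order was then TXNIP, ARRDC3, TSC2, TSC1, SESN2, SESN1, ARRDC4, DEPTOR and SESN3, which stood at 0.0900 ± 0.0436 TPM. DDIT4 alone was 1.71 times the sum of the other members. The order was identical in PDBAG1-treated cells, and in neither group did libraries of any of the 9 pairs of neighbours overlap. SESN3 and DEPTOR were below the filter of 1 TPM in at least 3 libraries, which left 8 of the 10 for the model across all genes.

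**Figure D1:**
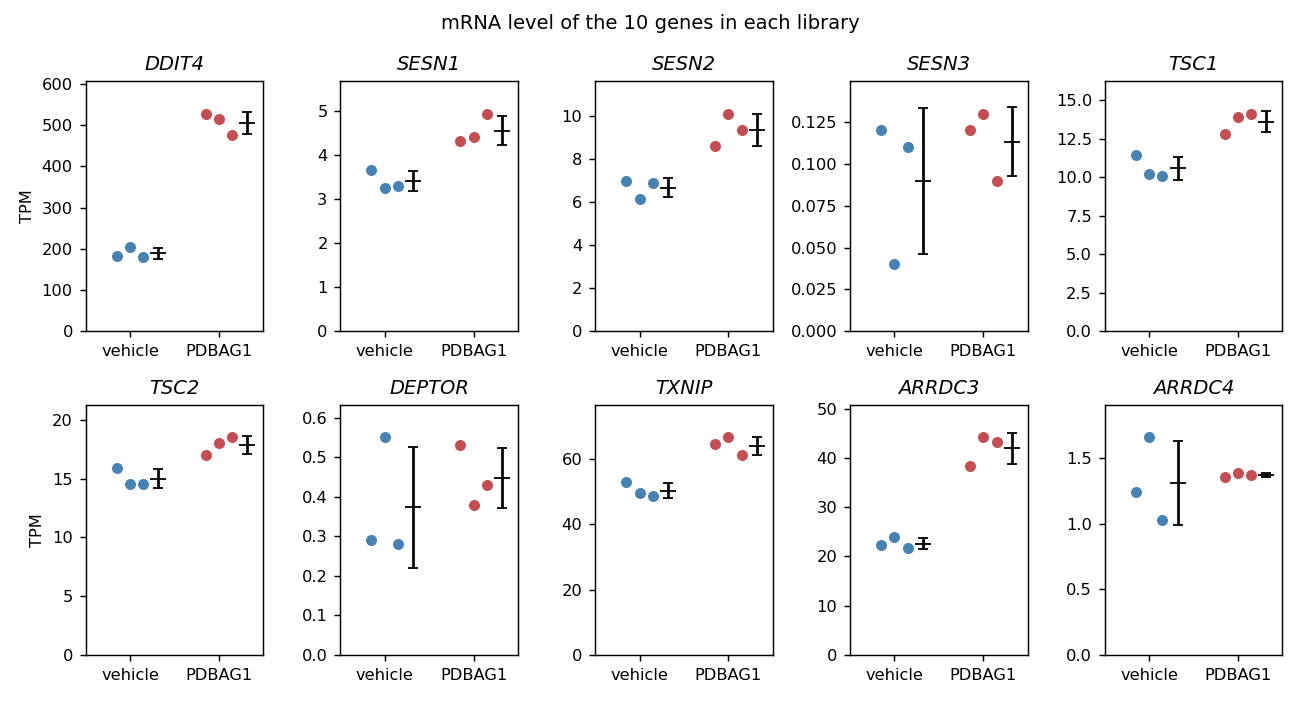
TPM of each gene in the 3 vehicle and 3 PDBAG1 libraries (points), with the group mean and SD (bars), every panel starting at 0 on its own linear axis. DDIT4, ARRDC3, SESN1, SESN2, TSC1, TSC2 and TXNIP show 2 separate sets of points, whereas SESN3, DEPTOR and ARRDC4 overlap.

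DDIT4 was the member that differed most. Its level was 182, 205 and 179 TPM in the vehicle libraries and 528, 514 and 476 TPM in the PDBAG1 libraries. The 2 groups were separated by 271 TPM, wider than the range within vehicle (25.3 TPM) or within PDBAG1 (51.9 TPM). Mean levels were 189 ± 13.8 and 506 ± 26.9 TPM, a ratio of 2.68. On the scale of log2(TPM + 1) the difference was 1.42 (SE 0.05), and it stayed between 1.38 and 1.48 when any single library was left out. Of the 12582 genes tested, 0.135% had a larger log2 fold change, which placed DDIT4 at rank 18.

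DDIT4 lies at chr10:72273919-72276036 on the plus strand of GRCh38 (ENSG00000168209). It is known as a target of the hypoxia-inducible factors, of ATF4 and of the glucocorticoid receptor, so the 250 bases before its start are shown. Letters were searched on both strands. Capitals mark ACGTG and GCGTG, the core letters of hypoxia response elements, CACGTG, the E-box, which contains ACGTG on each strand, and a loosened pair of E-boxes, CACGNG and again CACGNG with 5 bases between them. The sequence is RefSeq's (GRCh38.p14), chr10:72273674-72273923, plus strand. Its last 5 bases are inside an exon of another annotated DDIT4 transcript.
DDIT4: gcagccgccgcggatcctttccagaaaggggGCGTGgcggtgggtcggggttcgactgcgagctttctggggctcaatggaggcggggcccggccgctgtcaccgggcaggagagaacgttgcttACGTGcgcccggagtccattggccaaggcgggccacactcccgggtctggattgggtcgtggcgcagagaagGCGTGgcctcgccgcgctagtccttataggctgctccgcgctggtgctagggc
The DDIT4 window held ACGTG from -125 to -121 and GCGTG from -219 to -215 and from -53 to -49, counted from the transcription start. It held neither the letters TGATGNAA, a core bound by ATF4, nor AGAACA and TGTTCT with 3 bases between them, a glucocorticoid response element. The ATF4 letters were in 3.14% of 35116 windows of the same length and the glucocorticoid letters in 0.00285%. Letters this rare are missing from nearly every window, so nothing is read from their absence here. At least 1 of the 2 hypoxia cores was present in 43.2% of the 35116 windows, and in 4 of the 9 members with a window. DDIT4 and ARRDC4 held both cores, TSC2 only ACGTG and TXNIP only GCGTG. A match is a description of letters, and binding was not measured here.

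The gene whose profile over the 6 libraries was closest to that of DDIT4 was ALDOC, a glycolytic aldolase, with a root mean square difference of 0.0409 on log2(TPM + 1) after each gene was centred on its vehicle mean. ALDOC moved from 19.5 ± 1.44 to 52.9 ± 5.09 TPM. CSF2, the cytokine GM-CSF, came next at 0.0802, with 156 ± 2.13 and 403 ± 25.8 TPM. ANGPTL4, a secreted inhibitor of lipoprotein lipase, followed at 0.0929, with 3.29 ± 0.444 and 10.9 ± 0.672 TPM. Only 5 of the 12581 other genes were within 0.1 of DDIT4. The likeness rests mainly on the size of the difference between the groups, and within each group only 3 libraries are compared.

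**Figure D2:**
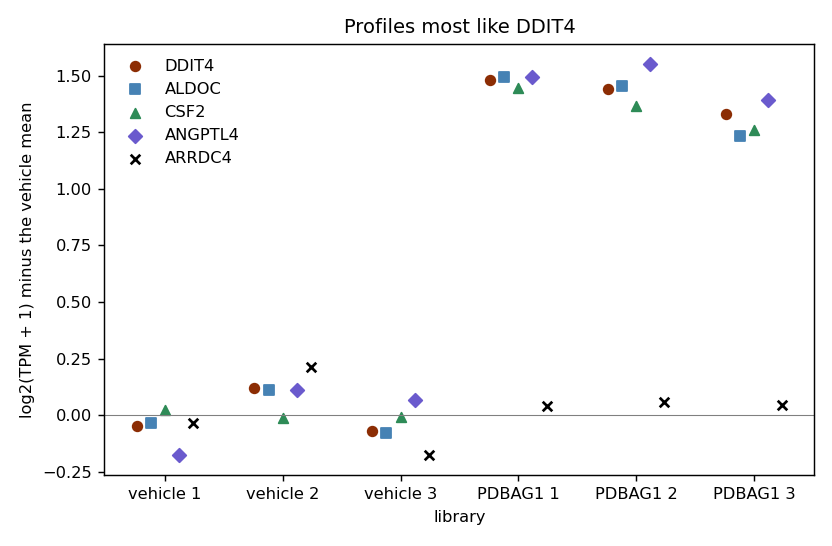
log2(TPM + 1) minus the vehicle mean in each library (x axis) for DDIT4, its 3 closest profiles and ARRDC4. The points of DDIT4, ALDOC, CSF2 and ANGPTL4 are near 0 in vehicle and well above it in all 3 PDBAG1 libraries, while the PDBAG1 points of ARRDC4 lie within the spread of its vehicle points.

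The sestrins were higher by a smaller step. SESN2, induced by amino acid shortage and a cytosolic leucine sensor, stood at 6.96, 6.15 and 6.90 TPM in vehicle and at 8.60, 10.1 and 9.37 TPM with PDBAG1. All 3 PDBAG1 libraries were above all 3 vehicle libraries, with a log2 difference of 0.43 (SE 0.09). SESN1, which also binds GATOR2, stood at 3.66, 3.25 and 3.30 TPM against 4.32, 4.41 and 4.94 TPM. Its groups did not overlap either, and its log2 difference was 0.34 (SE 0.10).

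SESN3, a FOXO target, was barely detected, at 0.12, 0.04 and 0.11 TPM in vehicle and 0.12, 0.13 and 0.09 TPM with PDBAG1, and its groups overlapped. The summed sestrin level was 10.2 ± 0.662 TPM in vehicle and 14.0 ± 0.866 TPM with PDBAG1. SESN2 supplied 65.6 ± 1.14% of it in vehicle and 66.7 ± 2.07% with PDBAG1, and these shares overlapped between the groups, from 64.8 to 66.9% and from 65.1 to 69.0%. SESN1 is at chr6:108984309-109094846 (minus strand), SESN2 at chr1:28259518-28282491 (plus) and SESN3 at chr11:95165513-95232541 (minus). The windows of SESN1 and SESN2 held none of the motifs searched, nor did that of SESN3, whose RefSeq start is 1273 bases from the GENCODE start and whose window has 66 bases in an exon.

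The 2 subunits of the TSC complex were also higher in every PDBAG1 library. TSC1, the scaffold subunit, stood at 11.4, 10.2 and 10.1 TPM in vehicle and at 12.8, 13.9 and 14.1 TPM with PDBAG1, a log2 difference of 0.34 (SE 0.08). TSC2, the subunit that turns off RHEB, stood at 15.95, 14.53 and 14.55 TPM against 17.02, 18.04 and 18.52 TPM, a difference of 0.24 (SE 0.07). The gap between the groups was 1.40 TPM for TSC1, just above its range within either group (1.34 and 1.31 TPM), and 1.07 TPM for TSC2, narrower than its range within either group. The share of TSC1 in their summed TPM was 41.3 ± 0.400% in vehicle and 43.3 ± 0.279% with PDBAG1. TSC1 is at chr9:132891348-132946874 (minus strand) and TSC2 at chr16:2047967-2089491 (plus). Among the 9 windows only that of TSC2 held the ATF4 letters, from -110 to -103, and 3.14% of all windows did. The annotated exon with the largest overlap covers 18 of the 250 bases of the TSC2 window and 218 of those of TSC1.

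DEPTOR, the inhibitor that binds mTOR directly, was near the limit of the table. Its level was 0.29, 0.55 and 0.28 TPM in vehicle and 0.53, 0.38 and 0.43 TPM with PDBAG1. The groups overlapped, and no difference could be read at this level. DEPTOR is at chr8:119873717-120050918 (plus strand).

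The arrestins did not move by a common amount. ARRDC3, which directs beta-adrenergic receptors and integrin beta 4 to degradation, stood at 22.33, 23.88 and 21.65 TPM in vehicle and at 38.4, 44.2 and 43.2 TPM with PDBAG1. The lowest PDBAG1 library was well above the highest vehicle library, the ratio of means was 1.85 and the log2 difference 0.86 (SE 0.07). Only 0.930% of the genes tested had a larger log2 fold change. TXNIP stood at 52.89, 49.65 and 48.58 TPM against 64.6, 66.7 and 61.2 TPM. Its groups were separate, with a ratio of 1.27 and a log2 difference of 0.34 (SE 0.05).

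ARRDC4, the paralogue of TXNIP that likewise lowers glucose uptake, stood at 1.24, 1.66 and 1.03 TPM in vehicle and at 1.36, 1.39 and 1.37 TPM with PDBAG1. The PDBAG1 libraries fell inside the vehicle range, and the log2 difference was 0.05 (SE 0.12). Leaving out single libraries moved it between -0.04 and 0.15. The 3 genes with profiles closest to ARRDC4, which had the smallest log2 fold change of the 8 members past the filter, were CALHM2, GSPT2 and SAP130, at differences of 0.0485, 0.0501 and 0.0528, but 214 genes were within 0.1 of it.

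In the summed TPM of the 3 arrestins, TXNIP held 67.8 ± 1.60% in vehicle and 59.7 ± 2.03% with PDBAG1, and ARRDC3 held 30.4 ± 1.28% and 39.0 ± 2.04%. The libraries of the 2 groups did not overlap in either share. The sum itself was 74.3 ± 2.71 TPM in vehicle and 107 ± 4.21 TPM with PDBAG1.

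TXNIP and ARRDC4 are known targets of MondoA (MLXIP) with its partner MLX, which bind paired E-boxes when glucose phosphates accumulate, so the windows of the 3 arrestins are shown together. The regions are chr1:145996580-145996829 (minus strand) for TXNIP, chr5:91383318-91383567 (minus) for ARRDC3 and chr15:97960453-97960702 (plus) for ARRDC4, from RefSeq (GRCh38.p14), read 5′ to 3′ on the strand of the gene. Capitals mark the same motifs as for DDIT4, which read CACGT and CACGC where they match on the opposite strand.
TXNIP: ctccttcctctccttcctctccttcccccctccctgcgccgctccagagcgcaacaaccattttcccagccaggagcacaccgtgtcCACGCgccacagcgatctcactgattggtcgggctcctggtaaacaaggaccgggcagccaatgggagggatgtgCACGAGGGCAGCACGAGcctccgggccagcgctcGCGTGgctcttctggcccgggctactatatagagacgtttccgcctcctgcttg
ARRDC3: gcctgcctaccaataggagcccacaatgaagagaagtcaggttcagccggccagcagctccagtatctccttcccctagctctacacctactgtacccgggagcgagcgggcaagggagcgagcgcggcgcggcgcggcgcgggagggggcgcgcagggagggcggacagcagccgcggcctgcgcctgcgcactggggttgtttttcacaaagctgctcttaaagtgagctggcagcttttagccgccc
ARRDC4: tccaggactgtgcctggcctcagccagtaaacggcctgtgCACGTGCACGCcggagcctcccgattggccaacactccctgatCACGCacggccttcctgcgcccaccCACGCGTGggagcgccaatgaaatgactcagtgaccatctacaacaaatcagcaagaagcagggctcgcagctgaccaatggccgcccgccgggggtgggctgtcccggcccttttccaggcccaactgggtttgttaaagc
The strict pair, CACGTG and again CACGTG with 5 bases between them, was in none of the 9 windows. Only 1 of the 35116 windows (0.00285%) held it, so nothing is read from its absence. The loosened pair matched TXNIP from -88 to -72, and 16 of the 35116 windows (0.0456%) held it. It was written after the sequences had been seen, so nothing is read from this match either. ARRDC4 held 1 E-box, from -210 to -205, and TSC2 held 1 from -114 to -109, a motif in 6.34% of windows. The forkhead core TGTTTAC matched TXNIP on the opposite strand from -124 to -118 and is in 2.98% of windows. ARRDC3, the arrestin with the largest difference, held none of the motifs searched. TXNIP is at chr1:145992435-145996579 (minus strand), ARRDC3 at chr5:91368631-91383317 (minus) and ARRDC4 at chr15:97960703-97973833 (plus).

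Added together, the 10 genes stood at 297, 315 and 286 TPM in vehicle and at 676, 673 and 629 TPM with PDBAG1. The ratio of the means was 2.20. DDIT4 accounted for 88.1% of the gain in TPM, ARRDC3 for 5.36% and TXNIP for 3.82%. The share of DDIT4 in the sum was 63.1 ± 1.86% in vehicle and 76.7 ± 1.28% with PDBAG1. Without DDIT4 the sum was 110.4 ± 4.21 TPM in vehicle and 153 ± 5.72 TPM with PDBAG1.

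**Figure D3:**
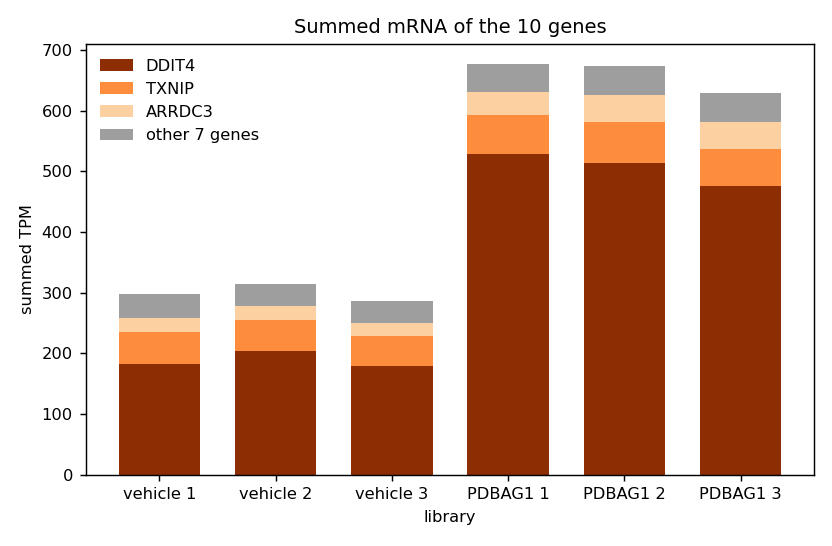
Summed TPM of the 10 genes in each of the 6 libraries, stacked by gene from 0. The PDBAG1 columns reach 629 to 676 TPM against 286 to 315 TPM in vehicle, and DDIT4 fills most of the added height.

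The log2 fold changes of the members covered a wide range. Of the 8 members past the filter, 7 were beyond the limit used for all genes (a limma adjusted p under 0.05) on the higher side, none on the lower side, and ARRDC4 was not, which describes the genes picked and is no test of them. Across all genes 37.6% were called, 21.7% higher and 15.9% lower, and since the members were picked on this contrast nothing is read from their count. With a further limit of 1.5-fold, DDIT4 and ARRDC3 were left, both higher, against 3.34% of all genes, 2.86% higher and 0.477% lower. The median log2 fold change was 0.34 for the 8 members and 0.03 for all genes tested. All PDBAG1 libraries were above all vehicle libraries in 7 of the 8 members and in 27.2% of all genes, with 20.2% entirely below and 47.4% separate in either direction. SESN1 and TSC2 were near that first limit: SESN1 was not beyond it without vehicle library 2, without vehicle library 3 or without PDBAG1 library 3, and TSC2 was not beyond it without vehicle library 2, without vehicle library 3 or without PDBAG1 library 2.

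**Figure D4:**
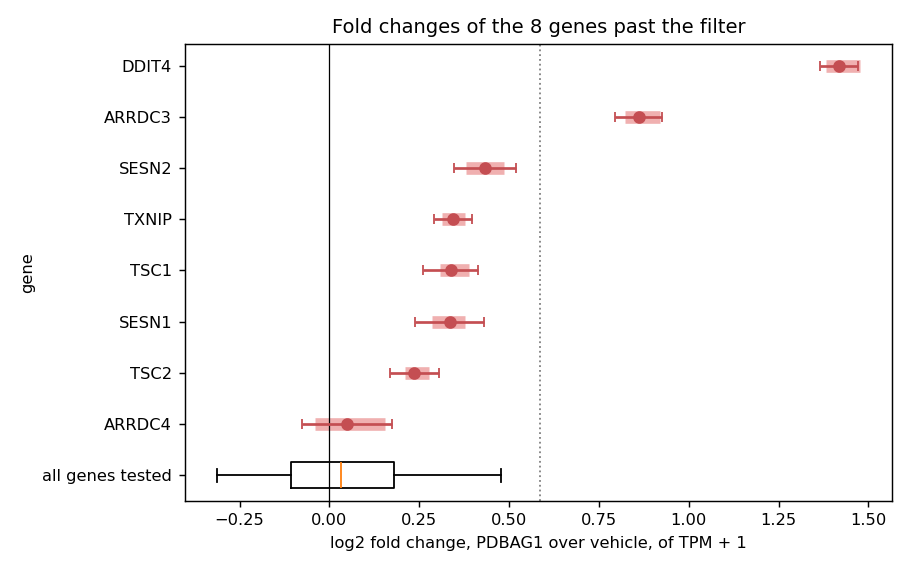
log2 fold change of TPM + 1, PDBAG1 over vehicle, for the 8 members past the filter (points, with SE bars) with the range when each library is left out (pink bands), above a box of all 12582 genes (quartiles, with whiskers from the 5th to the 95th percentile). DDIT4 at 1.42 and ARRDC3 at 0.86 lie past the dotted line at 1.5-fold, 5 members lie between 0.24 and 0.43, and ARRDC4 is at 0.05.

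The other genes of the pathway were taken as 9 lists of 122 genes, of which 115 passed the filter. In limma 39 of these rose, 15 fell and 61 did not pass at an adjusted p under 0.05. The called share of 47.0% stands beside 37.6% for all genes, and the median log2 fold change of 0.08 beside 0.03. By list the called share ran from 33.3% beside TSC1 and TSC2 to 48.1% for amino acid sensing, apart from 88.9% for glucocorticoid-responsive genes. It was 36.4% for AMPK and LKB1, 37.5% for PI3K and AKT, 37.5% for other arrestins and thioredoxin, and 46.2% for transcription factors. Nothing is read from the counts of lists near the share of all genes. Among the list genes named here, the calls of MLST8, RHEBL1, SEC13, PRKAG2, IRS2, MITF, EIF4E, EIF4EBP1, TXNRD3, MLXIP, ATF4 and HIF1A were lost under at least 1 alternative (other scaling, no filter, a replicate block or a library left out). In the mTOR complexes 2 of 7 genes rose and 1 fell. RICTOR, the core of mTORC2, rose from 25.8 ± 1.52 to 34.6 ± 4.12 TPM (log2 difference 0.40, adjusted p = 0.00129). RPTOR, which recruits mTORC1 substrates, rose from 16.7 ± 0.615 to 21.6 ± 0.997 TPM (0.35, adjusted p = 0.000834). MLST8, shared by both complexes, fell by 0.13 (adjusted p = 0.0366), and the kinase gene MTOR had a log2 difference of -0.07 (adjusted p = 0.440).

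Among the 3 tested genes of the list beside TSC1 and TSC2, RHEBL1, a RHEB relative, rose from 5.81 ± 0.422 to 7.97 ± 1.30 TPM (adjusted p = 0.0111). RHEB itself had a log2 difference of -0.06 (adjusted p = 0.236). DDIT4L, the paralogue of DDIT4, was below the filter. In the amino acid sensing list, which holds the partners of the sestrins, 10 of 27 genes rose and 3 fell. BMT2, the S-adenosylmethionine sensor SAMTOR, rose from 4.81 ± 0.228 to 8.60 ± 0.514 TPM (log2 difference 0.72, adjusted p = 2.04e-05). RRAGD, a lysosomal Rag GTPase, rose by 0.45 and the arginine sensor CASTOR1 rose by 0.42. The 3 that fell were MIOS by 0.37 (adjusted p = 0.00414) and, named after their values were seen, SEH1L by 0.25 and SEC13 by 0.11. They belong to GATOR2, the complex that sestrins bind, but its other genes, WDR24 and WDR59, did not pass, with log2 differences of 0.16 (adjusted p = 0.145) and -0.0027 (adjusted p = 0.979).

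Of the energy-sensing AMPK and LKB1 genes 2 of 11 rose and 2 fell. The subunit genes PRKAA2 and PRKAB2 rose by 0.37 and 0.28, whereas PRKAG1 fell from 107 ± 3.29 to 90.7 ± 0.710 TPM (adjusted p = 0.000691) and PRKAG2 fell by 0.19, with overlapping libraries. Of the PI3K and AKT genes 4 of 16 rose and 2 fell. PIK3R2, a regulatory PI3K subunit, rose from 42.0 ± 1.94 to 55.0 ± 1.58 TPM (adjusted p = 8.58e-05). The insulin receptor substrates moved apart, since IRS1 fell by 0.38 (adjusted p = 0.000259) and IRS2 rose by 0.26 (adjusted p = 0.0208).

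Among genes for mTORC1 outputs 7 of 21 rose and 3 fell. LPIN1, a phosphatidate phosphatase under mTORC1 control, rose from 39.4 ± 2.02 to 68.4 ± 2.65 TPM (adjusted p = 1.58e-07). ULK1, the kinase that starts autophagy, rose from 9.23 ± 0.584 to 16.2 ± 0.904 TPM (adjusted p = 5.46e-06). GRB10, an adaptor that dampens insulin signalling, rose by 0.64 and PDCD4, an inhibitor of translation initiation, rose by 0.54. The 3 that fell, named after their values were seen, were MITF by 0.32, EIF4E by 0.20 and EIF4EBP1 by 0.15. These are transcript levels, and phosphorylation by mTORC1 was not measured here.

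**Figure D5:**
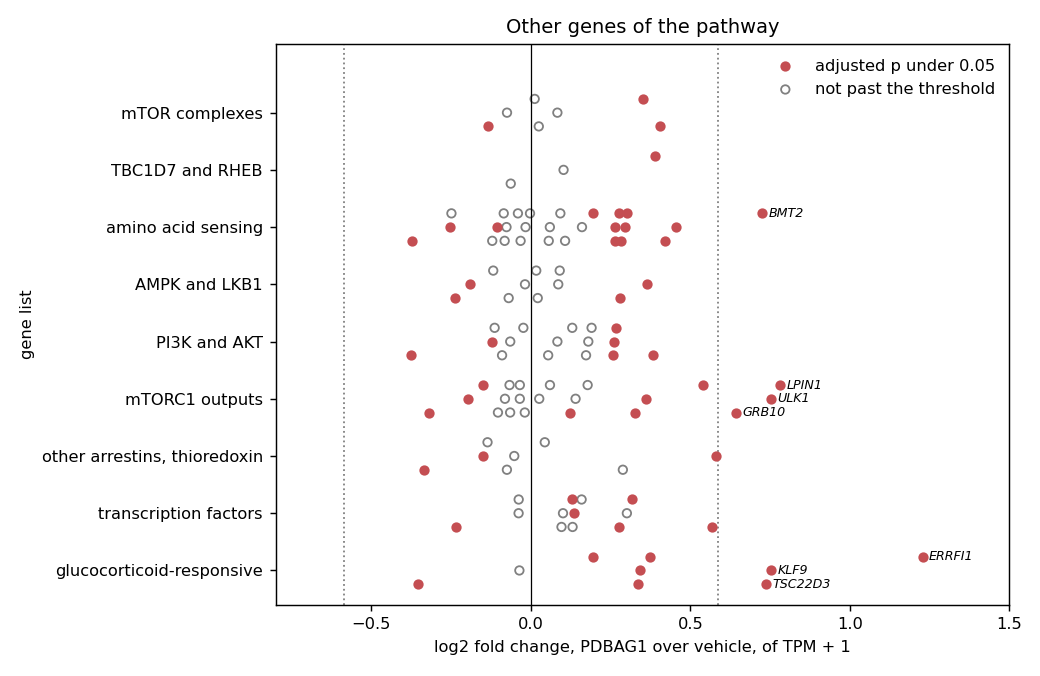
log2 fold change of TPM + 1, PDBAG1 over vehicle (x axis), for each tested gene of the 9 lists (rows). Filled points have a limma adjusted p under 0.05, open points do not, points are spread within a row for legibility, and dotted lines mark 1.5-fold; the 7 labelled genes are past it, all on the right.

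Among 8 other arrestin and thioredoxin genes, 1 rose and 2 fell. ARRDC2, a further alpha-arrestin, rose from 20.4 ± 0.884 to 31.0 ± 2.00 TPM (log2 difference 0.58, adjusted p = 1.38e-05), whereas ARRDC1 did not pass. TXN, the thioredoxin that TXNIP binds, fell from 1278 ± 49.2 to 1151 ± 25.5 TPM (adjusted p = 0.00503), and TXNRD3 fell by 0.33. Of 13 tested transcription factors known to act on the members, 5 rose and 1 fell. EPAS1, which encodes HIF-2 alpha, rose from 35.2 ± 0.946 to 52.7 ± 3.36 TPM (adjusted p = 5.42e-06). FOXO3 rose by 0.32, and MLXIP, the MondoA gene, rose by 0.28. ATF4 and HIF1A, named after their values were seen, rose by 0.13 each, with overlapping libraries for HIF1A.

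Of the 9 tested genes on a list of glucocorticoid-responsive genes, a class to which DDIT4 is known to belong, 7 rose and 1 fell, with a median log2 fold change of 0.34. ERRFI1, a feedback inhibitor of EGFR, rose from 224 ± 13.7 to 527 ± 24.7 TPM (adjusted p = 5.58e-10). KLF9 rose from 3.08 ± 0.150 to 5.88 ± 0.262 TPM and TSC22D3, also called GILZ, from 11.2 ± 0.845 to 19.3 ± 0.903 TPM (adjusted p = 2.61e-05 and 5.64e-06). FKBP5, named after its value was seen, was the 1 that fell, by 0.36. The receptor gene NR3C1 did not pass the test. The list was drawn up with earlier results of these libraries known, so its count is not independent evidence of a direction.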

How the data were processed

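Bulk RNA-seq of MDA-MB-231 cells was analysed, with 3 vehicle and 3 PDBAG1 libraries grouped by the treatment label. Per the file headers, the authors deposited TPM per gene, given to 2 decimals. The submitters' processing notes name GRCh38.p12, HISAT2 2.0.4, Bowtie2 2.2.5 and RSEM 1.2.12 without their roles. The study's methods describe FPKM, and the annotation release is not given in the sources used here. TPM keeps no depth, so precision rests on the 3 libraries per group.

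Genes with at least 1 TPM in at least 3 libraries were kept, and limma 3.58.1 in R 4.3.3 was fitted to log2(TPM + 1), with a trend of the variance in its moderated statistics. Calls had a Benjamini-Hochberg adjusted p under 0.05 over 12582 genes. The fold changes understate those of low genes. The code was tested on simulated data. Exact permutation of 6 libraries could not reach that threshold for 1 gene.

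The members and lists were chosen with earlier results of these data known. All members are named, with up to 4 called genes of the largest change per list and the 3 closest profiles to the members of the largest and smallest fold change. Genes named after their values were seen are so described, and 2 genes that this rule selects are not reported here. Gene positions are from GENCODE v44 (GRCh38). Promoter windows are from RefSeq (GRCh38.p14) and were taken for 9 of the 10 members, not for DEPTOR. Alternatives were another pseudocount, no filter, median-of-ratios or quantile scaling, a replicate block, a 1.5-fold limit and each library left out. All deposited columns were used.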

Additional observations from a re-analysis of the deposited data

How the results depend on the processing

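With no filter, a pseudocount of 0.1, either other scaling, a replicate block or each library left out, no member past the filter other than ARRDC4 changed direction. DDIT4 stayed between 1.38 and 1.48 and ARRDC3 between 0.82 and 0.92, and under quantile scaling SESN1 was 0.22 and TSC2 0.16. Of the 4736 calls 57.8% were higher, against 47.2% of 5196 with median-of-ratios and 46.7% of 5146 with quantile scaling, where the median of all genes moved from 0.03 to -0.01 and -0.02. With the 1.5-fold limit the calls were 420 for all genes, 2 for members, 7 for all pathway genes, 3 for mTORC1 outputs, 3 for glucocorticoid-responsive genes, 1 for amino acid sensing and, by that fold limit alone, 0 for the other 6 lists. In the list beside TSC1 and TSC2, limma called 2 genes with median-of-ratios and 0 with quantile scaling, where 1 had an unadjusted p under 0.05.

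Leaving out single libraries gave 3520 to 4682 calls over all genes, 5 to 7 for members and 41 to 50 for pathway genes. By list the ranges were 2 to 3 for mTOR complexes, 1 to 1 beside TSC1 and TSC2, 10 to 12 for amino acid sensing, 3 to 4 for AMPK and LKB1, 3 to 6 for PI3K and AKT (3 without vehicle library 3), 7 to 9 for outputs, 2 to 4 for other arrestins and thioredoxin, 4 to 7 for transcription factors and 6 to 8 for glucocorticoid-responsive genes. The labels do not say that replicate numbers pair libraries, and libraries of the same number showed no shared deviation (correlations -0.207, 0.0118 and -0.0785). The replicate block called 3951 genes, of which 3904 were shared with the fit without it, and 7 members. Of the other named genes, 14 lost their call under at least 1 alternative, which are those given with the lists and AKT1 and PDPK1. GSPT2 reversed to -0.056 under quantile scaling and SAP130 to -0.011 without vehicle library 3, within a range of -0.011 to 0.129 without single libraries, neither being called. The cause was not tested. Unknown depth limits the low genes SESN3, DEPTOR and ARRDC4 most.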
